A study of Mus musculus with 16 samples.

Results

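The 7 genes described here are the growth factors Fgf5 and Wnt8a and the transcription factors Pou3f1, Otx2, Foxd3, Zic2 and Zic5, all of which are used as marks of the post-implantation (primed) epiblast. They were found through the RefSeq transcript accession that the array design gives each probe, and all 7 were matched, out of 20972 genes that could be named in this way. Each gene had 1 probe, so no second probe could be set beside it, and all 7 were among the 15515 genes that passed the filter on dim signals. A gene passed if some group had its probe well above background on each of the 4 arrays. The transcripts were NM_010203 (Fgf5), NM_009290 (Wnt8a), NM_011141 (Pou3f1), NM_001286481 (Otx2), NM_010425 (Foxd3), NM_009574 (Zic2) and NM_022987 (Zic5).

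Messenger RNA was measured on 16 one-colour Agilent arrays, 1 for each of 16 pluripotent mouse cell lines of strain 129/Ola, with 4 lines in each of 4 groups. EpiSC lines were derived from the epiblast of post-implantation embryos, grown with Activin A and bFGF at passages 24 to 28, and labelled primed. The 2iSB_LIF lines (passages 17 to 24, labelled ground state) were grown with LIF, the inhibitor pair called 2i and SB431542, which blocks signalling by Activin, Nodal and TGF-beta. The 2i_LIF lines (passages 22 to 24, also ground state) had LIF and 2i alone, that is, inhibitors of the kinases MEK and GSK3. The LIF_serum lines (passages 23 to 26, labelled naive) had serum and LIF, and like both ground-state groups came from pre-implantation embryos. No group carried a transgene or a deletion, per the labels. EpiSC lines differed from the rest in embryonic origin as well as in medium, and the 2 cannot be told apart here.

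In the mouse the pluripotent epiblast moves from a naive state before implantation to a primed state after it, and stem cell lines can be held near either state by their medium. FGF signalling through MEK and ERK promotes this change, and inhibition of MEK holds it back. Fgf5 is switched on in the epiblast around implantation and is a standard mark of the primed state. Otx2 and Pou3f1 (also known as Oct6) act as transcription factors of that change, Foxd3 and the Zic genes are active in pluripotent cells and later in the neural plate and its crest, and Wnt8a is a Wnt ligand made in and near the primitive streak.

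Levels are given as log2 signals in which 0 is the 75th percentile of all probe signals on the same array, so that 1 unit is a 2-fold difference. A level of one gene cannot be set against that of another on this scale. Differences come from a limma fit over all 16 arrays, with Benjamini-Hochberg adjustment over the 15515 genes, and a gene was called changed where the adjusted p was under 0.05 and the difference 2-fold or more. The labels number the lines of a group but do not say how they were derived from each other, so p-values measure the spread between these lines only. For each gene the fit pools that spread over the 4 groups and moderates it by that of other genes. It is thus not the spread of the 2 groups compared alone. Between 51.5% and 63.6% of probes were well above background per array and none was saturated. The number of arrays limits the precision. The arrays lay on 2 slides, scanned apart: slide 2 held all EpiSC arrays, LIF_serum arrays 3 and 4, 2i_LIF array 4 and 2iSB_LIF array 3, and slide 1 the other 8 arrays. The naive markers, among them Zfp42 and Esrrb, averaged between -0.76 and -0.54 on EpiSC arrays and between 3.87 and 5.40 on all others. Markers of fibroblasts also differed between groups: their mean over 12 genes was 3.05 to 3.72 on EpiSC arrays, -3.93 to -3.58 on 2iSB_LIF arrays, -3.69 to -3.32 on 2i_LIF arrays and -1.36 to 1.65 on LIF_serum arrays. In such bulk RNA, fewer cells of a type and less RNA per cell cannot be told apart.

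By group mean, Fgf5, Wnt8a and Pou3f1 formed a graded set, highest in EpiSC, intermediate in LIF_serum and lowest in both ground-state groups. For Wnt8a the intermediate mean averages 2 unlike pairs of LIF_serum arrays, at -3.43 and -1.70 and at -5.45 and -5.83. The latter pair lay within the range of the ground-state groups. The other 4 genes, Otx2, Foxd3, Zic2 and Zic5, were well above background on all 16 arrays, and none of them was called in any of the 6 comparisons. Of the 7 genes held to mark the primed epiblast, 3 were thus called higher in EpiSC than in each other group. Against LIF_serum, 3 of 7 genes were called in EpiSC, all higher, where 33.6% of all tested genes were called (18.0% higher and 15.6% lower). In 2iSB_LIF against LIF_serum the same 3 genes were called lower, where 20.1% of all genes were called and 13.3% were lower. In 2i_LIF against LIF_serum they were again called lower, where 18.3% were called and 12.1% were lower. In EpiSC against 2iSB_LIF and against 2i_LIF these 3 genes were called higher, where 36.3% and 37.4% of all genes were called and 20.1% and 20.6% were higher. The arrays of the 2 sides did not overlap for 3 of the 7 genes in EpiSC against LIF_serum (58.8% of all tested genes), for 2 in 2iSB_LIF and 2 in 2i_LIF against LIF_serum (29.6% and 27.2%), and for 3 and 5 in EpiSC against 2iSB_LIF and 2i_LIF (54.2% and 55.2%). These comparisons share arrays, so their counts are not separate evidence. The median difference of the 7 genes was 1.26 in EpiSC against LIF_serum, -0.38 in 2iSB_LIF against LIF_serum and -0.30 in 2i_LIF against LIF_serum, beside medians of 0.07, 0.02 and 0.02 over all genes.

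**Figure D1:**
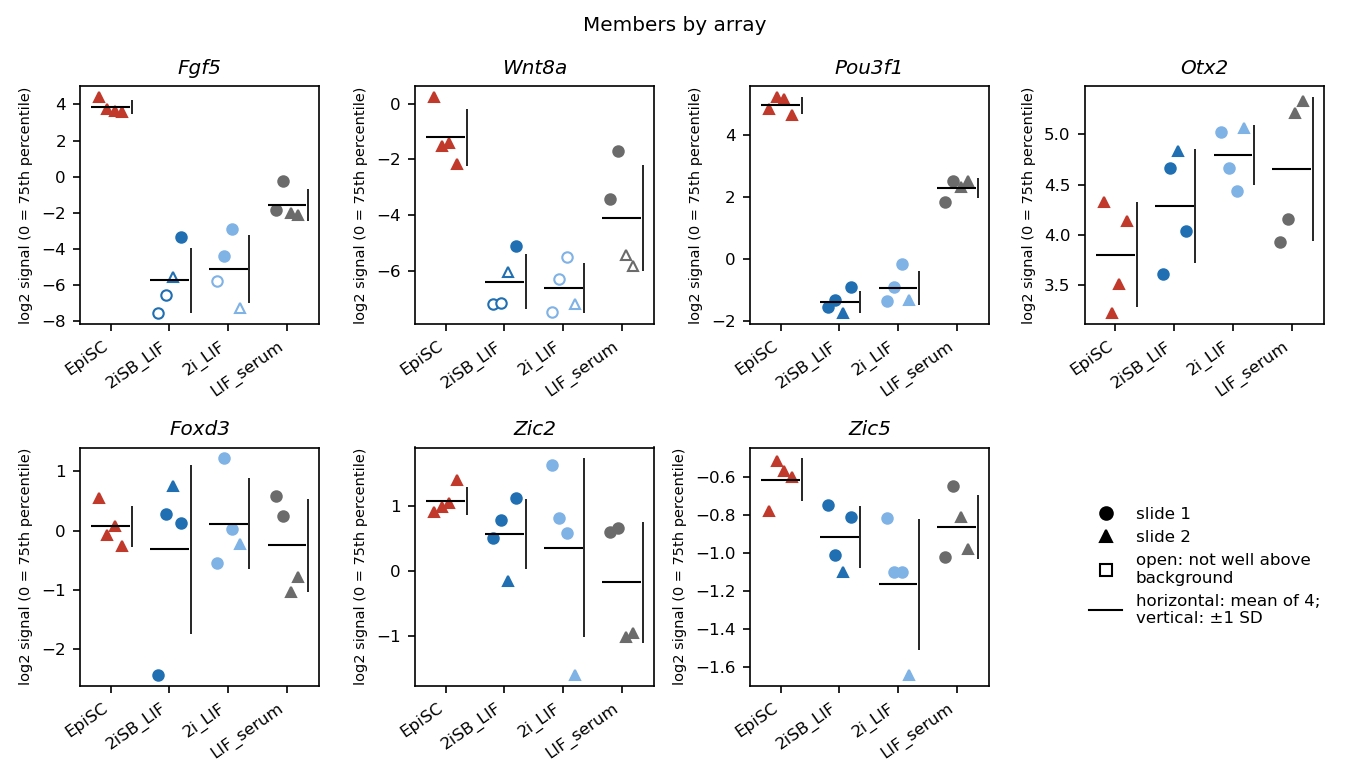
Log2 signal (0 is the 75th percentile of each array) of the 7 genes on every array, by culture group. Horizontal lines are means and vertical lines ±1 SD of 4 arrays, circles are slide 1, triangles slide 2, and open symbols were not well above background. For Fgf5 and Pou3f1 every EpiSC array lies above every other array, with LIF_serum between EpiSC and the ground-state groups, whereas the groups overlap or lie close together for Otx2, Foxd3, Zic2 and Zic5.

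Fgf5 encodes a secreted fibroblast growth factor. It had 4.42, 3.72, 3.64 and 3.58 on the 4 EpiSC arrays, -7.56, -6.56, -5.57 and -3.32 on 2iSB_LIF arrays, -5.78, -4.42, -2.92 and -7.30 on 2i_LIF arrays, and -1.85, -0.26, -2.04 and -2.13 on LIF_serum arrays. All EpiSC arrays were above all others, and every LIF_serum array was above every ground-state array. The probe was well above background on all 8 EpiSC and LIF_serum arrays but on 1 of 4 2iSB_LIF arrays and 2 of 4 2i_LIF arrays, so the ground-state levels are partly at the limit of detection. Its mean was 3.84 ± 0.39 in EpiSC, -5.75 ± 1.81 in 2iSB_LIF, -5.11 ± 1.87 in 2i_LIF and -1.57 ± 0.88 in LIF_serum (SD, n = 4 each).

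In EpiSC Fgf5 rose by 5.41 against LIF_serum (SE 0.90, limma adjusted p = 0.00014), which is 42.5-fold. It was lower than in LIF_serum by the fitted differences of -4.18 in 2iSB_LIF (SE 0.90, limma adjusted p = 0.0026) and -3.54 in 2i_LIF (SE 0.90, limma adjusted p = 0.0083). With normexp background correction the differences were -2.13 and -1.86, or 4.38-fold and 3.63-fold lower, and in the authors' deposited table -3.14 and -2.80, all called. Without 2iSB_LIF array 1 or 4 the first was -3.58 or -4.99, and without 2i_LIF array 3 or 4 the second was -4.26 or -2.81. Within slide 1 the differences were -4.76 and -3.32 (limma adjusted p = 0.054 and 0.14) and not called, and within slide 2, with 1 ground-state array in each, they were -3.48 and -5.21. With passage number in the fit the 2iSB_LIF difference was -3.65 (limma adjusted p = 0.054), and against LIF_serum arrays 3 and 4 alone the 2i_LIF difference was -3.02 (limma adjusted p = 0.053). EpiSC stood 8.94 above 2i_LIF as measured, a 492-fold ratio that shrank to 302-fold with dim values held at the floor of detection and to 124-fold with normexp background correction. Against 2iSB_LIF the difference was 9.59 (limma adjusted p = 3.5e-07), and 7.23 with normexp.

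The sequence around the Fgf5 start is shown because Fgf5 had the widest range of the 7 genes. The stretch from 250 bases before to 50 bases after the start (RefSeq, GRCm38.p6, chr5:98253934-98254233, plus strand) holds 29 CpG dinucleotides, in capitals, which is more than in 87.1% of 32851 promoters of the same length (median 7).
Fgf5: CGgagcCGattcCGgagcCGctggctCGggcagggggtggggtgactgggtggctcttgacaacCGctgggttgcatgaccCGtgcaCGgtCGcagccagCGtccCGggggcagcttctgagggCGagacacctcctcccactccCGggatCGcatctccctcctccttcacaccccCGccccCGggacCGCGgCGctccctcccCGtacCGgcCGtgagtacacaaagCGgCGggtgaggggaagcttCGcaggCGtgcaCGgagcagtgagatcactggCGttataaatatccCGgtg
Its GC content was 68.3%. The letters TATAAA began at position 35, counting the start as 1, and were found in 13.6% of all these promoters on either strand. The same windows were read for Otx2, Foxd3 and Zic5. TATAAA was also found at 1 of 4 Otx2 starts, at position -192, and not in the Foxd3 and Zic5 windows. No match to ATGCAAAT, CTTTGA or CAGCAGG, searched on both strands, was found in the windows of these 4 genes; 1.74%, 16% and 10.5% of all promoters held them. TAATCC was found at 1 of 4 Otx2 starts and in 7.06% of all promoters.

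Wnt8a followed the order of Fgf5 at a lower signal relative to background. It had 0.25, -1.52, -1.42 and -2.16 on EpiSC arrays, -7.22, -7.17, -6.07 and -5.13 on 2iSB_LIF arrays, -7.49, -6.30, -5.50 and -7.22 on 2i_LIF arrays, and -3.43, -1.70, -5.45 and -5.83 on LIF_serum arrays. It was well above background on 4 of 4 EpiSC, 1 of 4 2iSB_LIF, 0 of 4 2i_LIF and 2 of 4 LIF_serum arrays. LIF_serum array 2 lay within the range of EpiSC, and LIF_serum arrays 3 and 4 lay within the range of the ground-state groups. Means were -1.21 ± 1.03 in EpiSC, -6.40 ± 1.00 in 2iSB_LIF, -6.63 ± 0.91 in 2i_LIF and -4.10 ± 1.92 in LIF_serum (SD, n = 4 each).

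In EpiSC Wnt8a rose by 2.89 against LIF_serum (SE 0.82, limma adjusted p = 0.0085), or 7.42-fold as measured. With normexp background correction it was 1.63, or 3.1-fold, and 3.69 was found without LIF_serum array 2. When LIF_serum was represented by arrays 1 and 2 alone the difference was 1.35 and was not called (limma adjusted p = 0.17), whereas against arrays 3 and 4 alone it was 4.43 (limma adjusted p = 0.00027). Against 2i_LIF, where no array was well above background, EpiSC was at least 15.1-fold higher on the scale used here (limma adjusted p = 5.3e-05), but 6.11-fold higher with normexp, so the bound does not hold under that correction. Against 2iSB_LIF the difference was 5.18 as measured (limma adjusted p = 8.1e-05) and 2.53 with normexp. The bound sets the EpiSC mean against, per array, the higher of the dim signal itself and the lowest signal of a probe well above background. Bounds given below for other genes were computed on this scale alone, so the same limit applies to them. The differences from LIF_serum were -2.29 in 2iSB_LIF (SE 0.82, limma adjusted p = 0.044) and -2.52 in 2i_LIF (SE 0.82, limma adjusted p = 0.031). Of the calls made for the 7 genes, these 2 were lost most often, that in 2iSB_LIF under 14 and that in 2i_LIF under 11 of 23 other settings. Within slide 1 they were -3.94 and -3.86 (limma adjusted p = 0.024 and 0.028), and within slide 2, with 1 ground-state array in each, -0.43 and -1.58. With normexp they were -0.90 and -0.98 (limma adjusted p = 0.089 and 0.071). Without LIF_serum array 2 they were -1.49 and -1.72 (limma adjusted p = 0.13 and 0.093). They were lost as well without LIF_serum array 1 (-2.07 and -2.30), without 2iSB_LIF array 1, 2 or 3 (-2.02, -2.03 and -2.40), and without 2i_LIF array 1, 2 or 4 (-2.24, -2.63 and -2.32).

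Pou3f1, a POU-domain transcription factor, gave the narrowest groups of the graded set and was detected above background on each of the 16 arrays. It had 4.84, 5.23, 5.16 and 4.65 on EpiSC arrays, -1.54, -1.33, -1.75 and -0.90 on 2iSB_LIF arrays, -1.35, -0.91, -0.16 and -1.33 on 2i_LIF arrays, and 1.84, 2.52, 2.33 and 2.53 on LIF_serum arrays. EpiSC, LIF_serum and the pooled ground-state arrays fell into 3 ranges without overlap, while the 2 ground-state groups overlapped each other. Means were 4.97 ± 0.27 in EpiSC, -1.38 ± 0.36 in 2iSB_LIF, -0.94 ± 0.56 in 2i_LIF and 2.31 ± 0.32 in LIF_serum (SD, n = 4 each).

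In EpiSC Pou3f1 rose by 2.66 against LIF_serum (SE 0.27, limma adjusted p = 1.3e-06), or 6.34-fold. It stood 6.35 above 2iSB_LIF (limma adjusted p = 8.4e-11, 81.4-fold) and 5.91 above 2i_LIF (limma adjusted p = 1.8e-10, 60.1-fold). Its differences from LIF_serum were -3.68 in 2iSB_LIF (limma adjusted p = 4e-07) and -3.25 in 2i_LIF (limma adjusted p = 1.4e-06). Both ground-state differences were also called within slide 1 (-3.44 and -2.99, limma adjusted p = 0.0021 and 0.0039). Within slide 2, with 1 ground-state array in each difference, the values were -4.17 and -3.76. Each of its 5 calls held under every other setting tried.

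With LIF_serum taken as the intermediate state, Pou3f1 in LIF_serum had covered 55% of the log2 distance between 2i_LIF and EpiSC and 58.1% of that between 2iSB_LIF and EpiSC. Fgf5 had covered 39.6% and 43.6%, and Wnt8a 46.7% and 44.3%. These shares describe group means, and those of Fgf5 and Wnt8a depend on how dim ground-state signals are treated. Wnt8a was well above background on only 2 of 4 LIF_serum arrays. Its LIF_serum mean lies between those of arrays 1 and 2 (-2.56) and arrays 3 and 4 (-5.64), so its shares describe neither pair. For Otx2, Foxd3, Zic2 and Zic5 the ends of the scale did not differ by a called amount, so no such share is given.

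**Figure D2:**
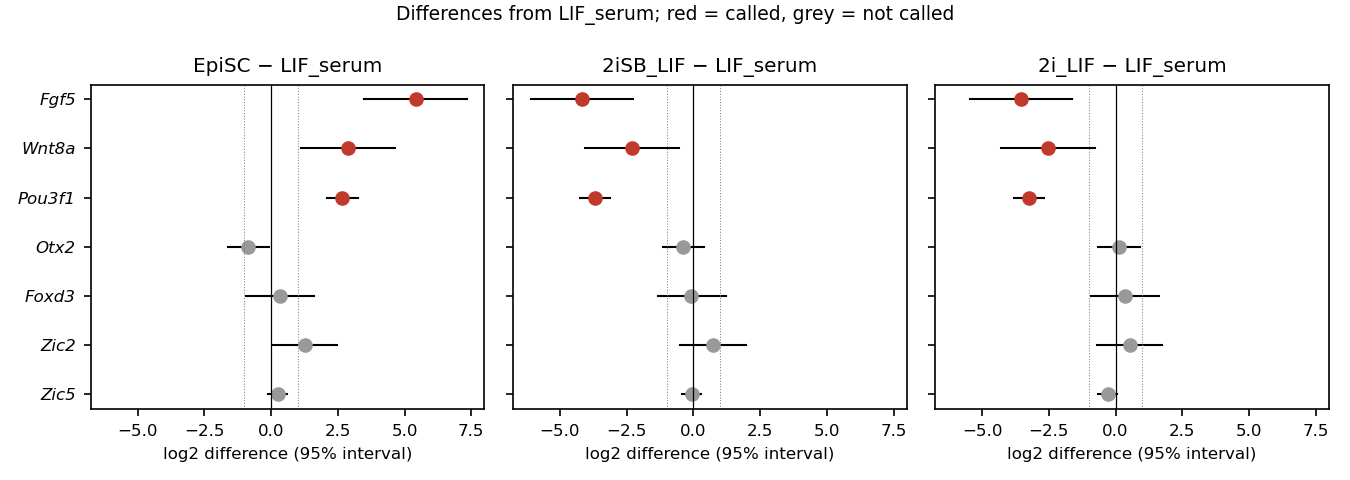
Log2 difference from LIF_serum with its 95% interval for the 7 genes, in EpiSC, 2iSB_LIF and 2i_LIF (limma, n = 4 arrays a group). Red points were called, grey points were not, and dotted lines mark a 2-fold difference. Fgf5, Wnt8a and Pou3f1 lie at 2.66 to 5.41 in EpiSC and between -4.18 and -2.29 in the ground-state groups, and the other 4 genes lie between -0.86 and 1.26.

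Otx2, a homeobox factor, was the one gene of the 7 whose mean was lowest in EpiSC. It had 4.33, 3.22, 3.51 and 4.14 on EpiSC arrays, 3.61, 4.66, 4.83 and 4.04 on 2iSB_LIF arrays, 5.02, 4.66, 4.44 and 5.06 on 2i_LIF arrays, and 3.93, 4.16, 5.21 and 5.33 on LIF_serum arrays. Every EpiSC array was below every 2i_LIF array, and EpiSC overlapped both other groups. Means were 3.80 ± 0.52 in EpiSC, 4.28 ± 0.56 in 2iSB_LIF, 4.80 ± 0.30 in 2i_LIF and 4.66 ± 0.72 in LIF_serum (SD, n = 4 each).

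The Otx2 difference in EpiSC was -0.86 against LIF_serum (limma adjusted p = 0.058), -0.48 against 2iSB_LIF (limma adjusted p = 0.28) and -0.99 against 2i_LIF (limma adjusted p = 0.030, just under 2-fold), none of them called. Its level differed between the slides: over the 12 arrays outside EpiSC, slide 2 was 0.81 above slide 1 (SE 0.22, limma adjusted p = 0.037, under 2-fold). Among them, LIF_serum arrays 3 and 4 (slide 2, label code LSFF) averaged 5.27 and arrays 1 and 2 (slide 1, code LS) 4.04. In LIF_serum, slide and code cannot be told apart, which also limits the block on the slide. On slide 2 the 4 EpiSC arrays, at 3.22 to 4.33, lay below the 4 others, at 4.83 to 5.33, while they overlapped the 8 arrays of slide 1, at 3.61 to 5.02. With the slide as a block the EpiSC differences were -1.26 against LIF_serum, -1.09 against 2iSB_LIF and -1.60 against 2i_LIF (limma adjusted p = 0.0032, 0.015 and 0.0012), all called lower. The call against LIF_serum also appeared without LIF_serum array 1 (-1.1), LIF_serum array 2 (-1.02) or EpiSC array 1 (-1.03). That against 2i_LIF appeared under 10 of 20 other settings, among them the authors' deposited table (-1.05), and without EpiSC array 1 or 4 (-1.17 and -1.1) or 2i_LIF array 2 or 3 (-1.04 and -1.11).

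Foxd3, a forkhead factor, did not separate the groups. Its arrays read 0.55, -0.08, 0.08 and -0.26 in EpiSC, -2.43, 0.28, 0.75 and 0.13 in 2iSB_LIF, -0.54, 1.22, 0.02 and -0.23 in 2i_LIF, and 0.58, 0.25, -1.04 and -0.79 in LIF_serum. All 4 groups overlapped, and 2iSB_LIF array 1 was the lowest of all 16. Means were 0.07 ± 0.35 in EpiSC, -0.32 ± 1.43 in 2iSB_LIF, 0.12 ± 0.77 in 2i_LIF and -0.25 ± 0.79 in LIF_serum (SD, n = 4 each). The EpiSC difference from LIF_serum was 0.32 with a 95% interval of -0.95 to 1.60, and that from 2i_LIF was -0.04 with an interval of -1.32 to 1.23, so differences of 2-fold in either direction lie inside the intervals. Within slide 2 the EpiSC difference from LIF_serum was 0.99 (limma adjusted p = 0.0078), just under 2-fold, and the single 2iSB_LIF array of that slide was 1.66 above LIF_serum.

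The Foxd3 start region is printed beside that of Fgf5, since its gene was not called in any comparison over all arrays. It lies at chr4:99656049-99656348 (RefSeq, GRCm38.p6, plus strand), with a GC content of 65.7% and 25 CpG dinucleotides, in capitals, more than in 81.6% of promoters of this length.
Foxd3: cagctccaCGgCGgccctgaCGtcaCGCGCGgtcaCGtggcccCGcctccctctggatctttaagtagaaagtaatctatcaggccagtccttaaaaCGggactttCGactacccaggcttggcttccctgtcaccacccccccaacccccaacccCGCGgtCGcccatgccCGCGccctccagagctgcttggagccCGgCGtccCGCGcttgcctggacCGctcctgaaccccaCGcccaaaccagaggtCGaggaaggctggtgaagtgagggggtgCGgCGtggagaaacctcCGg
The Zic5 window, of the same length, held 15 CpG dinucleotides, and the 4 Otx2 starts held 6 to 16. The graded Fgf5 and Foxd3, which was not called, thus both had CpG-rich starts on this count.

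Zic2 and Zic5, zinc finger factors, are neighbours in the mouse genome with a long non-coding RNA between them in the RefSeq annotation. Zic2 had 0.90, 0.99, 1.04 and 1.39 on EpiSC arrays, 0.50, 0.78, -0.15 and 1.12 on 2iSB_LIF arrays, 1.62, 0.82, 0.58 and -1.59 on 2i_LIF arrays, and 0.60, 0.66, -1.01 and -0.95 on LIF_serum arrays. Each EpiSC array was above each LIF_serum array, with a difference of 1.26 that was not called (SE 0.57, limma adjusted p = 0.076). Means were 1.08 ± 0.21 in EpiSC, 0.56 ± 0.54 in 2iSB_LIF, 0.36 ± 1.37 in 2i_LIF and -0.17 ± 0.93 in LIF_serum (SD, n = 4 each). In each of the 3 other groups the lowest arrays were those of slide 2.

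Over the 12 arrays outside EpiSC, Zic2 was 1.71 lower on slide 2 than on slide 1 (difference -1.71, SE 0.28, limma adjusted p = 0.0027), where 5.20% of all genes were called by slide. The 4 such arrays of slide 2 lay between -1.59 and -0.15 and the 8 of slide 1 between 0.50 and 1.62, without overlap. EpiSC arrays, all on slide 2, lay at 0.90 to 1.39, above the others of their slide and inside the range of slide 1. With the slide as a block Zic2 was called higher in EpiSC against LIF_serum (2.11, SE 0.31, limma adjusted p = 7e-05), 2iSB_LIF (1.80, limma adjusted p = 0.00054) and 2i_LIF (2.01, limma adjusted p = 0.00022). Within slide 2 the difference was 2.06 against the 2 LIF_serum arrays (limma adjusted p = 4.4e-05), and it was 1.23 and 2.67 against the single arrays of 2iSB_LIF and 2i_LIF. The difference from LIF_serum was called under 6 of 22 other settings, among them median centring and the fit without LIF_serum array 2 (1.53, limma adjusted p = 0.049). The block takes the slide offset of the other groups to hold for EpiSC, which has no array on slide 1 to test it. That offset rests in part on LIF_serum, where Zic2 was 1.61 higher on arrays 1 and 2 than on arrays 3 and 4. There slide and label code cannot be told apart. The rest comes from the single slide 2 arrays of 2iSB_LIF and 2i_LIF.

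Zic5 varied least of the 7 genes, with a span of -1.64 to -0.52 over all arrays. It had -0.78, -0.52, -0.57 and -0.60 on EpiSC arrays, -0.75, -1.01, -1.1 and -0.81 on 2iSB_LIF arrays, -0.82, -1.1, -1.1 and -1.64 on 2i_LIF arrays, and -1.02, -0.65, -0.81 and -0.98 on LIF_serum arrays. Means were -0.62 ± 0.11 in EpiSC, -0.92 ± 0.16 in 2iSB_LIF, -1.17 ± 0.34 in 2i_LIF and -0.86 ± 0.17 in LIF_serum (SD, n = 4 each). All EpiSC arrays were above all 2i_LIF arrays, by a mean of 0.55 (SE 0.17, limma adjusted p = 0.012), a 1.46-fold difference that is below the 2-fold limit. Within slide 2 that difference was 1.03, against 1 array of 2i_LIF. Against LIF_serum the difference was 0.25 with a 95% interval of -0.11 to 0.60, which leaves out a 2-fold change.

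Counting slide in this way moved the tally of the 7 genes, although in LIF_serum slide and label code cannot be told apart. With the slide as a block 5 of 7 were called in EpiSC against LIF_serum, 2iSB_LIF and 2i_LIF, where 33.7%, 35.6% and 35.8% of all genes were called. Within slide 2, where 2iSB_LIF and 2i_LIF have 1 array each and their spread is taken from the other groups, the counts were 5, 4 and 6 of 7, where 36.8%, 38.7% and 39.7% of all genes were called. For 2iSB_LIF and 2i_LIF against LIF_serum, 3 and 2 of 7 were called within slide 2 (32.0% and 27.1% of all genes). These counts rest on 1 ground-state array each and are not the graded set. In 2iSB_LIF they held Fgf5 (-3.48) and Pou3f1 (-4.17), both lower, and Foxd3 (1.66), which was higher, while Wnt8a was at -0.43. In 2i_LIF they held Fgf5 (-5.21) and Pou3f1 (-3.76), both lower. Within slide 1, 2 and 2 of 7 were called (11.4% and 10.9% of all genes). These were Wnt8a and Pou3f1, lower in each, and Fgf5 was not called.

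**Figure D3:**
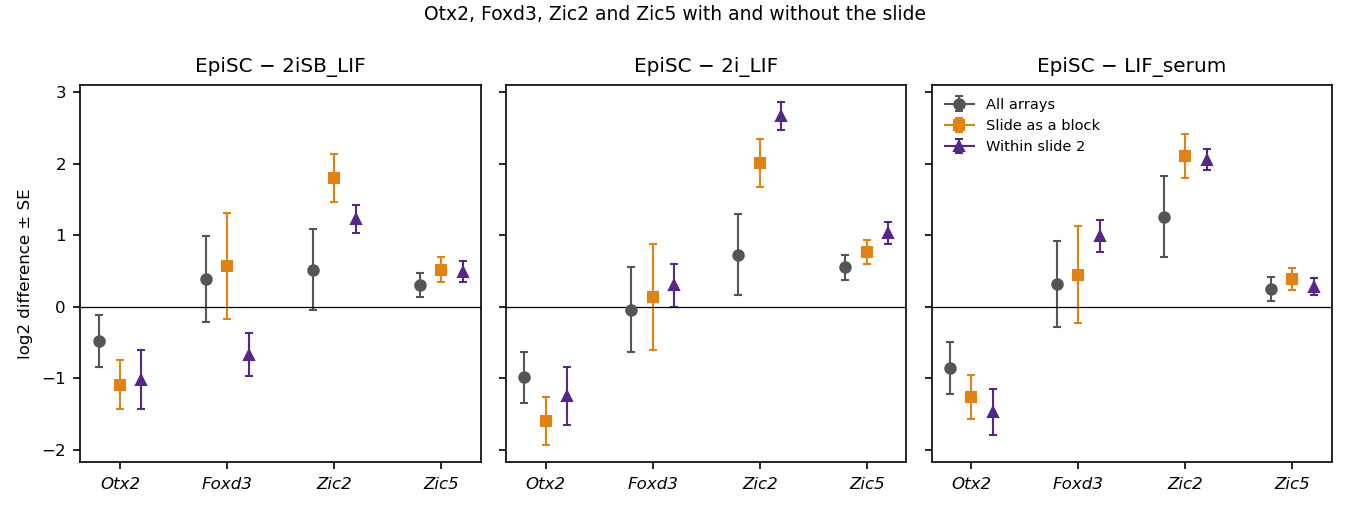
Log2 difference ± SE of EpiSC from each other group for Otx2, Foxd3, Zic2 and Zic5, from all arrays, after blocking on the slide, and from slide 2 alone. Zic2 moves from 1.26 to 2.11 and 2.06 against LIF_serum when the slide is taken into account, Otx2 moves from -0.86 to -1.26 and -1.47, and Foxd3 goes to 0.45 and 0.99 against LIF_serum, where it was 0.32. The 2iSB_LIF and 2i_LIF points of slide 2 rest on 1 array each.

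Addition of SB431542 to 2i and LIF gave no called change in any of the 7 genes in 2iSB_LIF against 2i_LIF (0 of 7 in limma, and 0 of 7 at an unadjusted p under 0.05), where 0.0838% of all genes were called. Fgf5 differed by -0.65 with a 95% interval of -2.56 to 1.27, and Wnt8a by 0.23 with an interval of -1.53 to 1.99, so changes well over 2-fold could have gone unseen at these dim signals. Pou3f1 was better bounded, at -0.44 with an interval of -1.01 to 0.14, as was Zic5, at 0.25 with an interval of -0.11 to 0.61. Otx2 differed by -0.51, Foxd3 by -0.43 and Zic2 by 0.21. Within slide 1, where 0.0129% of all genes were called, none of the 7 was, and Fgf5 differed by -1.44. Slide 2 holds 1 array of each of these groups, between which Fgf5 differed by 1.73 and Zic2 by 1.45. A fit that takes the spread of these single arrays from the other groups called 14.4% of all genes, so it compares the 2 arrays and not the conditions, and no call is read from it.

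The LIF_serum lines themselves fell into 2 pairs. Arrays 1 and 2 carry the code LS, lie on slide 1 and had fibroblast marker means of 1.65 and 1.38. Arrays 3 and 4 carry the code LSFF, lie on slide 2 and had means of -1.25 and -1.36. What the codes stand for is not stated in the labels, and code, slide and fibroblast marker level cannot be told apart. Arrays 1 and 2 averaged 3.08 above arrays 3 and 4 in Wnt8a, 1.61 in Zic2, 1.34 in Foxd3 and 1.02 in Fgf5, whereas Otx2 was lower in arrays 1 and 2 (-1.23). Pou3f1 (-0.25) and Zic5 (0.06) hardly differed between the pairs. With 2 arrays on each side these differences were not tested.

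Over all 16 arrays, the fibroblast markers were in the same group order as the graded genes. In EpiSC 11 of 12 were called higher than in LIF_serum and none lower (median 3.06), beside 18.0% and 15.6% of all tested genes. In 2iSB_LIF and in 2i_LIF 11 of 12 were called lower than in LIF_serum (medians -3.54 and -3.09). Of all tested genes 20.1% and 18.3% were called there, and 13.3% and 12.1% were lower. Dcn, a defining matrix gene of fibroblasts, was not well above background on any ground-state array and averaged 4.01 ± 0.58 in EpiSC and -2.54 ± 2.48 in LIF_serum. Whether fibroblasts were present, and what part they had in the levels of Fgf5, Wnt8a, Pou3f1 and Zic2, was not tested.

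**Figure D4:**
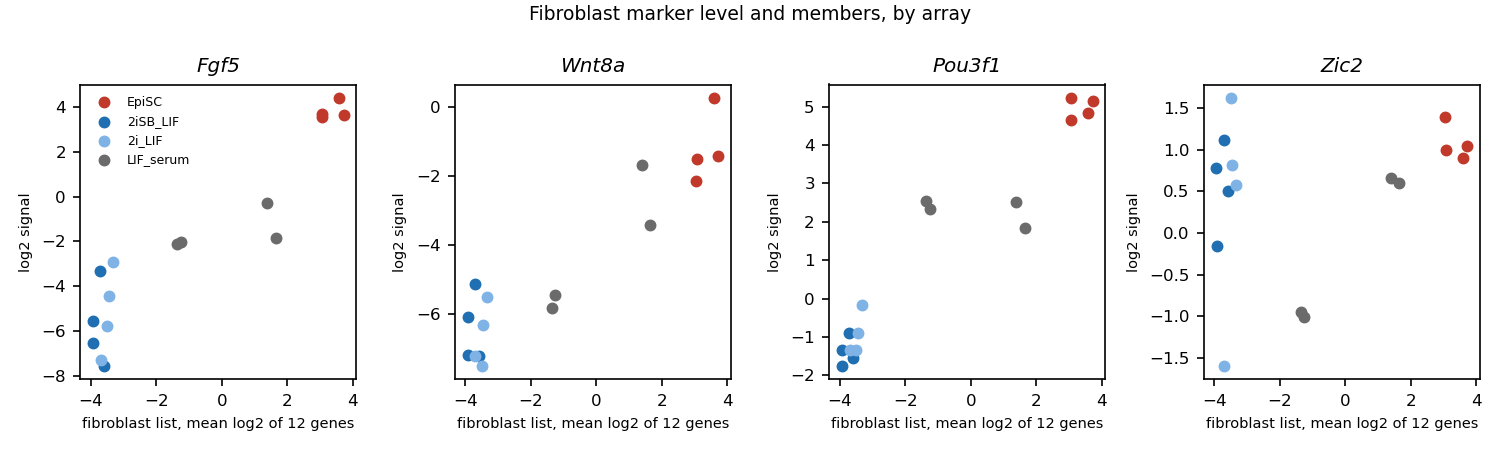
Log2 signal of Fgf5, Wnt8a, Pou3f1 and Zic2 on each of the 16 arrays (vertical axis) against the mean log2 signal of 12 fibroblast markers on the same array (horizontal axis), coloured by group. EpiSC arrays lie at marker means of 3.05 to 3.72 and the ground-state arrays at -3.93 to -3.32, and the LIF_serum arrays split into pairs at 1.38 to 1.65 and at -1.36 to -1.25. These pairs separate in Fgf5, Wnt8a and Zic2 and overlap in Pou3f1.

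Relatives of the 7 genes were examined next. Of 14 listed family members 6 passed the filter on dim signals, and Zic4, Pou3f3, Pou3f4, Otx1, Crx, Foxd1, Wnt8b and Fgf6 did not. In EpiSC against LIF_serum 3 of these 6 were called higher and 1 lower, beside 18.0% and 15.6% of all tested genes. Zic1 rose by 1.1 (limma adjusted p = 0.0093), and Foxd2 was at least 1.73-fold higher (limma adjusted p = 0.043). Pou3f2 was also called (limma adjusted p = 0.013) but, like Foxd2, was well above background on no LIF_serum array, and its signals were too dim to bound a ratio. Fgf4, the FGF ligand of naive cells, ran opposite to Fgf5: it fell by 4.36 in EpiSC against LIF_serum (limma adjusted p = 8.9e-11) and had 1.64 ± 0.25 in EpiSC, 6.38 ± 0.12 in 2iSB_LIF, 6.38 ± 0.30 in 2i_LIF and 6.0 ± 0.21 in LIF_serum.

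The 12 other listed genes of the post-implantation epiblast gave a wider frame for the graded set. In EpiSC against LIF_serum 7 of 12 were called higher and 2 lower (median 1.55), beside 18.0% and 15.6% of all tested genes (median 0.07). In 2iSB_LIF against LIF_serum 0 were higher and 7 lower (median -1.48), and in 2i_LIF 1 was higher and 7 lower (median -1.54). Of all tested genes 20.1% and 18.3% were called in these comparisons, and 13.3% and 12.1% were lower. Sox11 and Fgf8 had the order of Pou3f1 and Fgf5: Sox11, a SoxC factor, was 2.30 higher in EpiSC, -4.10 in 2iSB_LIF and -4.46 in 2i_LIF, and Fgf8, a further FGF ligand, was 2.81 higher in EpiSC, -2.58 in 2iSB_LIF and -2.16 in 2i_LIF. Sall2, a zinc finger factor, did likewise (3.34, -1.58 and -1.19). Others differed from that order. Dnmt3b, a de novo DNA methyltransferase, had 6.39 ± 0.23 in EpiSC and 6.80 ± 0.38 in LIF_serum, a difference of -0.41 that was not called, and fell in both ground-state groups (-2.17 and -3.04). Nodal, the TGF-beta family ligand of the epiblast, was highest in EpiSC and lowest in LIF_serum, and was called 1.09 higher in 2i_LIF than in LIF_serum. Utf1 and Grhl2 fell in EpiSC (-1.34 and -2.54).

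**Figure D5:**
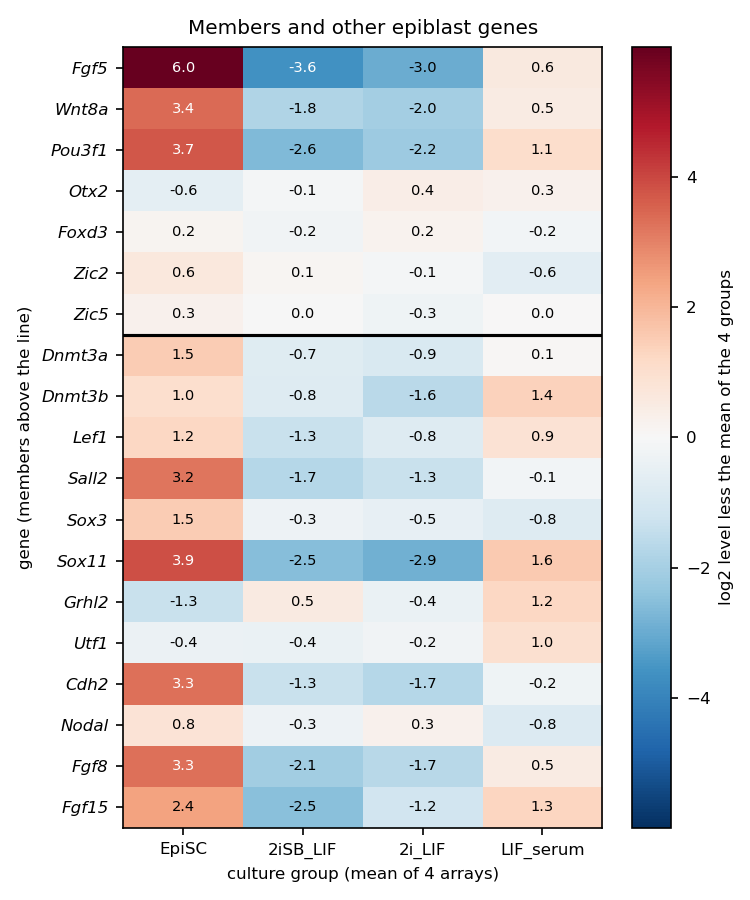
Group mean log2 level (4 arrays each) less the mean of the 4 groups, for the 7 genes (above the line) and 12 other epiblast genes. Red is above and blue below the gene's own mean. Fgf5, Wnt8a and Pou3f1 share the pattern of Sox11 and Fgf8, while the rows of Otx2, Foxd3, Zic2 and Zic5 are pale.

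Receptors for the 2 ligands were split in direction. Of 16 FGF and Wnt receptor genes 6 were called higher and 2 lower in EpiSC against LIF_serum (median 0.31), beside 18.0% and 15.6% of all genes. Fgfr1, the main FGF receptor of the epiblast, rose by 1.51 (limma adjusted p = 1.4e-07) and Fgfr4 fell by 3.33 (limma adjusted p = 4.7e-06). Among the frizzled receptors of Wnt ligands, Fzd1, Fzd6, Fzd8, Fzd2 and Fzd10 rose by 2.97, 2.89, 2.35, 1.97 and 1.23, and Fzd9 fell by 2.48. Fzd2 had the order of Wnt8a, with 3.97 ± 0.13 in EpiSC, 0.05 ± 0.43 in 2iSB_LIF, -0.42 ± 0.81 in 2i_LIF and 2.00 ± 0.56 in LIF_serum. In 2iSB_LIF against LIF_serum 2 of the 16 were higher and 3 lower (20.1% of all genes were called), and in 2i_LIF 3 were higher and 4 lower (18.3% were called).

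Genes downstream of these ligands were counted in the same way. Of 11 targets of ERK 6 were called higher and 1 lower in EpiSC against LIF_serum (median 2.15), beside 18.0% and 15.6% of all genes, among them Phlda1 (3.83, limma adjusted p = 6.4e-08) and the ERK phosphatase Dusp6 (3.50, limma adjusted p = 4e-06), while Etv5 fell (-1.04). In the ground-state groups 3 of 11 fell in 2iSB_LIF and 2 in 2i_LIF and 0 rose in either, beside 13.3% and 12.1% of all genes that fell, so that at this list size the counts are close to those over all genes. Of 11 targets of Wnt signalling 2 were higher and 2 lower in EpiSC against LIF_serum (median -0.75), which is close to the shares of all genes (18.0% and 15.6%). Lgr5, well above background on no LIF_serum array, was at least 8.72-fold higher, Apcdd1 rose by 1.02, and Cdx1 and Axin2 fell by 4.31 and 1.77. In 2iSB_LIF 1 was higher and 4 lower, and in 2i_LIF 1 was higher and 3 lower, where 13.3% and 12.1% of all genes were lower. Notum was the higher one in both, and Rnf43 the one that fell most (-4.32 and -5.10).

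Markers of the lineages that later express these genes were counted as well. Of 9 tested primitive streak genes, the tissue in which Wnt8a acts, 7 were called higher and 1 lower in EpiSC against LIF_serum (median 2.15), beside 18.0% and 15.6% of all genes. T (brachyury) and Wnt3 had the order of Wnt8a, at -0.46 ± 1.22 and -1.07 ± 0.69 in EpiSC, -6.01 ± 1.17 and -6.39 ± 1.09 in 2iSB_LIF, -5.54 ± 0.63 and -5.65 ± 0.97 in 2i_LIF, and -2.48 ± 1.30 and -3.22 ± 0.91 in LIF_serum. Their ground-state signals were mostly dim. T was well above background on 1 of 4 arrays in each ground-state group, and Wnt3 on 0 in 2iSB_LIF and 2 in 2i_LIF. Mesp1, a gene of nascent mesoderm, was at least 5.06-fold lower in EpiSC, where no array was well above background, and Gsc was higher in both ground-state groups than in LIF_serum (4.16 in 2iSB_LIF and 3.81 in 2i_LIF). Of 7 tested neural genes, the later domain of Zic2, Zic5 and Otx2, 2 were higher (Sox1, by 3.15, and Nes, by 2.66) and 2 lower (Hesx1 and En2) in EpiSC against LIF_serum, a count too small to set apart from those shares. The part of cells of these lineages in the levels of the 7 genes was not tested.

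Adjoining genes differed between loci. Cfap299, next to Fgf5, rose by 3.35 in EpiSC against LIF_serum (limma adjusted p = 0.00029) and by 4.00 against 2i_LIF, while its differences from LIF_serum were -0.61 in 2iSB_LIF and -0.65 in 2i_LIF and were not called. Prdm8, on the other side of Fgf5, was well above background on each EpiSC array and on no LIF_serum array (at least 1.18-fold higher, limma adjusted p = 0.029). Nme5, next to Wnt8a, rose by 1.40 in EpiSC against LIF_serum (limma adjusted p = 0.0033), and Fam13b on its other side differed by 0.07 and was not called. Alg6, next to Foxd3, differed by -0.15 in EpiSC against LIF_serum and was not called. In EpiSC against 2iSB_LIF and 2i_LIF it was called lower (-1.09 and -1.06, limma adjusted p = 5.8e-06 and 7.6e-06). Against LIF_serum it was 0.94 higher in 2iSB_LIF and 0.91 higher in 2i_LIF, both under 2-fold and not called. The nearest annotated neighbours of Pou3f1, Otx2, Zic2 and Zic5 were non-coding RNAs that were not tested.

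Likeness was measured by Pearson's r over the 16 arrays, which share slides and groups, and is given as a description. Fgf5 went with Wnt8a at 0.95 and with Pou3f1 at 0.96, and after each group's mean was taken away these values were 0.73 and 0.67. Wnt8a went with Pou3f1 at 0.89, and at 0.3 within groups. Most ground-state signals of Fgf5 and Wnt8a were not well above background, which limits their values within groups. Zic2 and Zic5 went together at 0.63, and at 0.74 within groups, while Otx2 ran against Zic2 at -0.58. The genes most like Fgf5 were Tcim (0.981), Hivep2 (0.972) and Nrcam (0.971), those most like Wnt8a included Emp1 (0.958) and Aebp1 (0.956), and those most like Pou3f1 were Gpm6b (0.991), Pea15a (0.991) and Mfap2 (0.990). For Zic2 they were Tsc22d2 (0.940), Zic1 (0.920) and Zdbf2 (0.909), and for Otx2 Gpc3 (0.901), Trp53inp1 (0.867) and Tbx21 (0.847). Foxd3 and Zic5 had weaker matches, led by Rxylt1 (0.854) and Aff4 (0.868).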

How the data were processed

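The 7 genes and all gene lists were chosen with earlier results of these data known. Each array's deposited intensity values are processed signals of Agilent Feature Extraction 10.7.1.1, background-subtracted by the scanner software, per the file headers; the submitters' processing notes also name limma. Repeated spots of a probe were averaged, and the log2 signal less the array's 75th percentile was used. Control spots and outlier spots were left out. The deposited log2 table (42316 probes, column medians 7.51 to 7.58, correlation of 0.989 to 0.994 with the scanner values) was an alternative; no source used here gives its normalization. Probes were named through RefSeq accessions, and the probe of highest mean stood for a gene. Group means were fitted with limma 3.58.1 (R 4.3.3) without covariates. Named genes were the 7 genes, the listed genes, genomic neighbours, and the 3 most correlated genes of each. Some genes that this rule names are not reported here. The array files name the build mm9; promoter coordinates are of GRCm38.p6. The fit was tested on simulated data. Normexp was run on median signals, the mean signal being absent from the columns used. Other normalizations and filters, the slide, passage number, parts of a group and left-out arrays were tried as alternatives.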

Additional observations from a re-analysis of the deposited data

Results flagged for a closer look

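Among the 28 sets of 4 arrays (7 genes in 4 groups) 2 held an array far from the other 3. Fgf5 on EpiSC array 1 was at 4.42, with a gap to the nearest array of 0.833 of the group's range, and Fgf5 on LIF_serum array 2 was at -0.26, with a gap of 0.850 of the range, both above Dixon's critical value at the 95% level. Chance flags about 1 in 20 such sets. Left out in turn, arrays moved the Fgf5 difference of EpiSC from LIF_serum only between 5.21 and 5.85, and it was called each time.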

How the results depend on the processing

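Every call of Pou3f1, and every call of Fgf5 and Wnt8a in EpiSC against a ground-state group, held under all settings tried; of 903 recomputed differences of the 7 genes 803 kept sign and side, 30 lost a call, 29 gained one and 41 changed sign, 2 of them called. The number of the 7 genes called in EpiSC against LIF_serum became 5 with the slide as a block, within slide 2 and against LIF_serum arrays 3 and 4 alone, in EpiSC against 2i_LIF 5 and 6 with the block and within slide 2, and in EpiSC against 2iSB_LIF 5 with the block. It became 1 in 2i_LIF against LIF_serum arrays 3 and 4 alone, 1 in 2iSB_LIF against LIF_serum with passage number as a covariate, and 2 in 2iSB_LIF against 2i_LIF within slide 2, where 1 array stands on each side. Leaving out arrays in turn gave 3 to 5, 2 to 3 (2i_LIF), 2 to 3 (2iSB_LIF), 3 to 4, 3 to 3 and 0 to 0 in the order EpiSC, 2i_LIF and 2iSB_LIF against LIF_serum, EpiSC against 2i_LIF and 2iSB_LIF, and 2iSB_LIF against 2i_LIF; the count of 5 came without LIF_serum replicate 2. Over all genes these calls ran from 4957 to 5168, 2398 to 3010, 2676 to 3424, 5600 to 5965, 5424 to 5827 and 11 to 27 (27 without 2iSB_LIF replicate 1). The all-gene count in 2iSB_LIF against 2i_LIF, 13, became 23 with dim values at the floor, 42 with passage, 8 with the replicate block, 3 from the 2 groups alone, 2 within slide 1 and 2236 within slide 2. In 2iSB_LIF against LIF_serum it became 1902 with passage, 1761 within slide 1 and 4969 within slide 2, where 1 array stood for 2iSB_LIF, and in 2i_LIF against LIF_serum 1687 within slide 1.

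Sign changes were as follows, and those within slide 2 rest on 1 array of each ground-state group, so no call is read from them. Foxd3 in EpiSC against 2i_LIF became 0.04 with median centring, 0.14 with the slide block, 0.47 with passage and 0.30 within slide 2; in 2i_LIF against LIF_serum -0.09 with passage, -0.19 within slide 1 and -0.30 against LIF_serum arrays 1 and 2; in EpiSC against LIF_serum arrays 1 and 2 -0.34; in 2iSB_LIF against LIF_serum 1.66 within slide 2 and 0.60 against arrays 3 and 4; in EpiSC against 2iSB_LIF -0.67 and in 2iSB_LIF against 2i_LIF 0.97 within slide 2. Zic5 in 2iSB_LIF against LIF_serum became 0.12 with passage. Wnt8a in 2iSB_LIF against 2i_LIF became -0.03 with passage and -0.08 within slide 1, Zic2 -0.20 within slide 1 and Fgf5, at -0.65 over all arrays, 1.73 within slide 2. Otx2 against LIF_serum became 0.05 (2iSB_LIF, slide 1), 0.23 (2iSB_LIF, arrays 1 and 2), -0.21 (2i_LIF, slide 2) and -0.47 (2i_LIF, arrays 3 and 4), and Zic2 -0.61 (2i_LIF, slide 2), -0.27 (2i_LIF, arrays 1 and 2) and -0.06 (2iSB_LIF, arrays 1 and 2), where it was 0.53 (2i_LIF) and 0.74 (2iSB_LIF) over all arrays. With arrays left out in turn, signs also changed for Otx2 (-0.11 to 0.36) and Foxd3 (0.0 to 0.64) in 2i_LIF against LIF_serum, Foxd3 (-0.42 to 0.64) and Zic5 (-0.11 to 0.02) in 2iSB_LIF against LIF_serum, Foxd3 in EpiSC against 2i_LIF (-0.26 to 0.32) and 2iSB_LIF (-0.31 to 0.75), and Foxd3 (-0.79 to 0.27), Wnt8a (-0.19 to 0.61), Fgf5 (-1.46 to 0.08) and Zic2 (-0.44 to 0.63) in 2iSB_LIF against 2i_LIF. The cause was not tested.

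The replicate block gave 3, 2, 2, 3, 3 and 0 of the 7 genes in the same order. Between arrays of equal number in different groups, r of deviations from group means ran from -0.6 to 0.4. On the same slide its median was 0.12 for equal and 0.08 for unequal numbers. The labels do not say what equal numbers mark, and these correlations cannot decide whether such arrays were paired. Median centring moved the median of all genes in EpiSC against LIF_serum to 0.18, against 0.07, and called Zic2 higher. Normexp on median signals and the floor for dim values were chosen after seeing the data. Signal over background limits Fgf5 and Wnt8a in the ground-state groups.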
